A study of Mus musculus with 8 samples.

Results

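The cells described here are CD8 alpha-beta T cells of the neonatal mouse lung, 188 of the 11806 cells in the deposited table, or 1.59% (exact binomial 95% interval 1.37 to 1.83). They were chosen by measured transcripts, counted as unique molecular identifiers (UMIs, which mark each captured RNA molecule): at least 1 UMI of Cd3e, Cd3d or Cd3g, at least 1 of the T cell receptor alpha constant gene Trac, at least 1 of Cd8a or Cd8b1, and 0 of Trdc, Cd4 and Cd79a. They are set against 54 cells with the same T cell transcripts, at least 1 UMI of Cd4 and 0 of Cd8a and Cd8b1, called CD4 cells here, and against the 11618 cells that are not CD8 cells. The data came from lungs of 5-day-old C57BL6/J pups labelled WT, for wild type, all of which had been exposed before birth to bacterial lipopolysaccharide, on day 14 of gestation. After birth 4 libraries' pups were kept in hyperoxia (65% oxygen, labelled BPD, a model of the lung disease of preterm infants) and 4 in air (21% oxygen, labelled healthy). Lungs were frozen, thawed and sorted by flow cytometry into endothelial, epithelial and immune cells before droplet sequencing, so the share of T cells among all cells also depends on the sort. Nothing in the table ties a cell to its library. Hyperoxia and air are therefore pooled in every value and were not compared.

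CD8 alpha-beta T cells recognise peptides held by major histocompatibility complex class I molecules, using a receptor of paired alpha and beta chains and the CD8 coreceptor, which is a Cd8a-Cd8a or a Cd8a-Cd8b1 pair. The transcription factor Runx3 maintains their lineage and silences Cd4, while Zbtb7b does the reverse in helper T cells. Mature cells leave the thymus in a naive state marked by Lef1, Tcf7 and Ccr7, and on activation or under cytokines they turn on killing genes such as granzymes. In mice, T cells made in fetal and neonatal life are known for a readier, more innate-like activation than those made in adults.

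Transcripts that played no part in the choice matched a T cell label. Lef1, the naive T cell transcription factor, was seen in 176 of the 188 CD8 cells at 1063 CPM (UMIs of the gene over all UMIs summed in those cells, scaled to a fixed total), against 48.5 CPM in all other cells. Themis, a signalling protein needed for thymic selection, was seen in 158 cells at 646 CPM, against 22.1 CPM in all other cells. Both genes were named as markers together with the choice, so they are no independent check. In CD4 cells Lef1 was at 1430 CPM and Themis at 521 CPM, so neither sets CD8 cells apart from CD4 cells. The 20 genes of receptor signalling summed to 7783 CPM in CD8 cells, 9715 CPM in CD4 cells, 2546 CPM in 172 natural killer (NK) cells (Ncr1 or Klrb1c, no Cd3 gene) and 1046 CPM in all other cells. The NK group also held transcripts of other lineages. Its epithelial genes summed to 5445 CPM and its macrophage genes to 4250 CPM, against 125 and 473 CPM in CD8 cells. NK values are therefore averages over a mixed group. Defining genes of other lineages were at 0 in the CD8 cells for the NK genes Ncr1 and Klra8, the B cell genes Ebf1 and Igkc, the macrophage genes C1qa and C1qb, the neutrophil genes Ly6g and Cxcr2, the gamma-delta genes Il17a and Il23r, and all 5 erythroid genes. In all, 8 of 16 NK and innate-like, 3 of 7 B cell, 2 of 10 macrophage, 2 of 8 neutrophil and 4 of 14 gamma-delta list members were at 0, and the others were seen in CD8 cells.

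Among the genes that made the choice, Cd8b1 (chr6:71322788-71337494 in mm10, plus strand) gave 828 UMIs in 168 cells, and Cd8a (chr6:71373427-71379173, plus strand) gave 355 UMIs in 148 cells. Both were seen in 128 cells, Cd8b1 alone in 40 and Cd8a alone in 20. At the edge of the choice, 26 cells had exactly 1 coreceptor UMI and 162 had 2 or more, the median cell had 4 and the highest 50. Just outside it, 121 cells passed the T cell part with neither coreceptor and 4 had both coreceptor types. A cell with neither may have held transcripts that were not captured.

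The CD8 cells held 1428335 UMIs with a median of 5610.5 per cell, the CD4 cells 324440 with a median of 4565, and all other cells 75592385 with a median of 4400. The barcodes of the table fall into 8 alphabetical runs, which may follow the 8 libraries but match no label. CD8 cells were found in all 8 runs, 13, 3, 27, 27, 31, 10, 70 and 7 in run order, against 5, 1, 1, 8, 11, 1, 26 and 1 CD4 cells. Run 7 thus held the most cells of both kinds, and its part is given beside the results that it moves. As a share of a run's cells, CD8 cells made up 0.584% at the lowest, 1.63% at the median and 2.69% at the highest. Among the 242 cells with 1 coreceptor type, 77.7% were CD8 cells (71.9 to 82.8), and this share lay between 72.2% and 96.4% in the 6 runs with at least 10 such cells. CD8 cells outnumbered CD4 cells in every run, in counts of transcript-positive cells that depend on how often each coreceptor transcript was captured. Of the 12 barcodes seen in more than 1 run, 0 belonged to a CD8 cell.

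**Figure D1:**
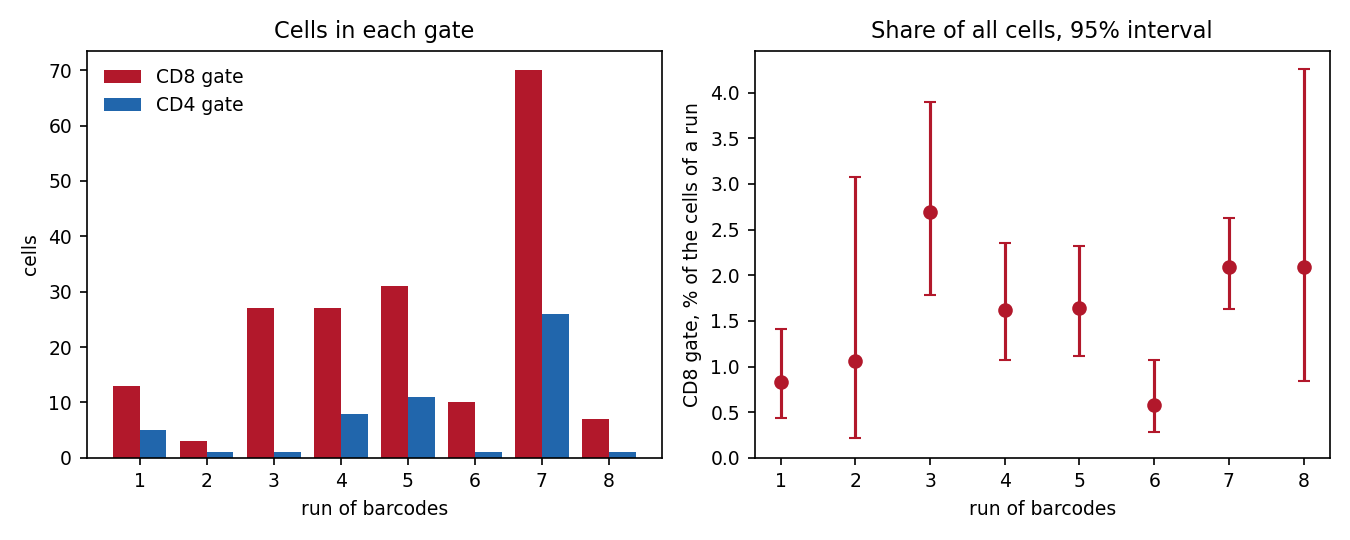
Left, number of CD8 cells and CD4 cells in each of the 8 runs of barcodes. Right, CD8 cells as a percentage of all cells of the run with exact binomial 95% intervals; run 6 is lowest at 0.584% and run 3 highest at 2.69%.

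Genes of receptor signalling, of the CD8 lineage and of the naive state were mostly higher in CD8 cells than in all other lung cells. Over 7291 genes with enough UMIs to compare, 260 were at least 4-fold higher in CD8 cells (3.57%) and 1187 at least 4-fold lower (16.3%). Among the receptor signalling genes, 18 of 20 were at least 4-fold higher and 0 lower, and among the naive genes 12 of 20 were higher and 0 lower. Of the CD8 lineage genes 8 of 11 compared were higher and 0 lower, and of the effector genes 6 of 17 were higher and 4 lower. The median log2 fold was 3.52 for receptor signalling, 3.08 for the CD8 lineage, 2.63 for the naive and 1.09 for the effector genes, against -0.13 over all genes compared. Of the 20 genes with the largest folds at 100 CPM or more, Nsg2, a vesicle protein that marks naive T cells, was 30.5-fold higher. Themis was 29.3-fold, Sidt1 25.4-fold, Lef1 21.9-fold, Tcf7 20.2-fold and the receptor beta constant gene Trbc2 19.2-fold higher. The costimulatory receptor Cd28 was 16.9-fold, the kinase Lck 14.9-fold, the chromatin organiser Satb1 12.0-fold and the lymph node homing receptor Ccr7 11.5-fold higher. The cells on the other side of these folds include the CD4, gamma-delta and other T cells. Of the genes named here only Themis (1.24-fold) and Sidt1 (1.71-fold) were above their level in CD4 cells. Nsg2 was 0.740 times, Tcf7 0.723 times and Cd28 0.728 times the CD4 level. These folds thus do not set CD8 cells apart from CD4 cells. All 10 macrophage and all 7 neutrophil genes compared were at least 4-fold lower in CD8 cells, as were 7 of 8 epithelial and 5 of 6 endothelial genes.

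The CD8 cells carried a naive programme. Its 20 genes summed to 8229.9 CPM in CD8 cells, against 12119 CPM in CD4 cells, 3592 CPM in NK cells and 2668 CPM in all other cells. Ccr7 was at 241 CPM in CD8 cells, against 287 CPM in CD4 cells, and the survival receptor gene Il7r was at 296 CPM in CD8 cells, against 256 CPM in CD4 cells. The values of Ccr7 and Il7r in CD8 and CD4 cells lay close together, while the sum of the 20 genes was 0.679 times the CD4 level (0.655 to 0.704). Tcf7 was at 475 CPM in CD8 cells and 657 CPM in CD4 cells. Lef1 was at 580 CPM in the lowest run, 877 at the median and 1872 in the highest of the 6 runs with at least 10 CD8 cells, against 1430.2 CPM over all CD4 cells. Lef1 was highest in run 6 and lowest in run 5, and the CD4 value lies within the range of the runs.

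Compared with CD4 cells, 6313 genes had at least 30 UMIs in both kinds together. Of these, 394 were at least 2-fold higher in CD8 cells (6.24%) and 434 at least 2-fold lower (6.87%). The exact interval of the ratio, which covers counting error only, excluded 1 for 215 of the higher genes (3.41%) and 395 of the lower ones (6.26%). With 1 pooled sample on each side no test of these folds was possible, and none has a replicate check. When ratios were centred on the median gene instead of total UMIs, every log2 fold moved up by 0.12, and the counts became 488 higher and 304 lower. Values below are on total UMIs, where the median gene stood at -0.12 on the log2 scale.

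The CD8 cells were higher for genes of the CD8 lineage and of killing. Of 12 CD8 lineage genes, 11 could be compared and 9 of these were at least 2-fold higher, 8 with an interval that excluded 1, and 0 were lower. Of 25 effector genes, 12 could be compared, with 11 at least 2-fold higher, 10 of them with such an interval, and 0 lower. The lists share Klrd1, Nkg7, Ctsw, Cst7, Tbx21 and Xcl1, so their counts are not independent, and genes enter only with 30 UMIs, which favours those that are high in the larger CD8 group. With each run left out in turn, 4 to 9 CD8 lineage and 7 to 11 effector genes were at least 2-fold higher; the lowest counts came without run 7, where CD4 cells had 0 UMIs of several genes and a bound takes the place of the ratio. With at least 2 UMIs of a coreceptor, which leaves out most CD4 cells, 5 CD8 lineage and 9 effector genes were at least 2-fold higher. With cells thinned to 2000 UMIs, which leaves more genes at 0 in CD4 cells, 4 CD8 lineage and 5 effector genes were. With all UMIs the median log2 folds of these lists were 2.42 and 2.35. The effector genes summed to 2138 CPM in CD8 cells, 422 CPM in CD4 cells, 8446 CPM in NK cells and 4870.3 CPM in 380 gamma-delta T cells (a Cd3 gene and Trdc). Across the 6 runs the sum in CD8 cells ranged between 637 and 3159 CPM with a median of 2118, and the lowest run was still above the CD4 value.

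Runx3, the lineage factor, was at 236 CPM in the lowest run, 310 at the median and 378 in the highest. Over all CD8 cells it was at 300 CPM in 135 cells, against 67.8 CPM in 11 CD4 cells, a 4.42-fold difference (2.88 to 7.13), and every run lay above the CD4 value. Klrd1 (chr6:129591782-129598775, plus strand), the CD94 chain of NK receptors that bind class I molecules, gave 681 UMIs in 117 CD8 cells. It was at 477 CPM in CD8 cells, 40.1 CPM in CD4 cells and 509 CPM in NK cells, with 78.0 CPM in the lowest run, 442 at the median and 747 in the highest. The CD4 value came from 13 UMIs of 1 cell of run 7, and the 11.9-fold difference (6.91 to 22.5) became at least 26.5-fold without run 7. The intervals of the level in CD8 cells (442 to 514 CPM) and in NK cells (465 to 557 CPM) overlapped. Only 57.0% of cells in the mixed NK group had a UMI of Klrd1, so this overlap is no comparison with pure NK cells. Nkg7, a cytotoxic granule protein, was at 299 CPM in the lowest run, 362 at the median and 604 in the highest. Over all 136 CD8 cells with a UMI it was at 440.4 CPM, against 52.4 CPM in CD4 cells and 578 CPM in NK cells, an 8.40-fold difference over CD4 cells (5.21 to 14.5) that was 21.6-fold without run 3. Ctsw, a cathepsin of killer cells, was 5.80-fold higher (3.19 to 11.8), at 197 CPM in CD8 cells and 33.9 CPM in CD4 cells.

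Promoter sequence is shown for 4 genes of CD8 and killer cells, with letters bound by the families of Runx3 and of the T-box factors Tbx21 and Eomes, which were themselves higher in CD8 cells. Each window runs from 250 bases before to 50 bases after the start site, is written 5′ to 3′ along the gene, and comes from RefSeq on GRCm38.p6. Capitals mark the letters searched on both strands, TGTGGT or TGCGGT for RUNX factors and TCACAC for T-box factors, and 0 matches overlapped. Cd8a is chr6:71373177-71373476 (plus strand) with a RUNX match at 44 from the start site. Nkg7 is chr7:43436888-43437187 (plus strand) with a RUNX match at -83 and a T-box match at -12. Gzma is chr13:113100932-113101231 (minus strand) with a RUNX match at -50. Cd160 is chr3:96829302-96829601 (minus strand) with RUNX matches at -99 and -76 and a T-box match at -186, and is the first of 2 windows listed for that gene.
Cd8a: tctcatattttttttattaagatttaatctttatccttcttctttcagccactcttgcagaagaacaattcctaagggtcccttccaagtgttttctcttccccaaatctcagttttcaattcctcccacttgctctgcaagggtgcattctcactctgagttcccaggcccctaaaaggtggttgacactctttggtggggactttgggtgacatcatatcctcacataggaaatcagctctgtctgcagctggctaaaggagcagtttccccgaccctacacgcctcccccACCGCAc
Nkg7: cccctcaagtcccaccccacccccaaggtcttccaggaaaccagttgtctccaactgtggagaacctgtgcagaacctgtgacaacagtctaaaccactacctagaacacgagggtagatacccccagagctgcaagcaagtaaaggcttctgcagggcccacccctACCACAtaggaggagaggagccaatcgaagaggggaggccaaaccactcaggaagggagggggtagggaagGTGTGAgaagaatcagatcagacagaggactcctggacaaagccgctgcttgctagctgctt
Gzma: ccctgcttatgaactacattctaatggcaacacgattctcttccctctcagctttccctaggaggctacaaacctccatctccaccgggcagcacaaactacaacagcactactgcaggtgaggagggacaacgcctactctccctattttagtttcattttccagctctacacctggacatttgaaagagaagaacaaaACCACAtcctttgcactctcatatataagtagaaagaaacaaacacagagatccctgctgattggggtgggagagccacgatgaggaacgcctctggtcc
Cd160: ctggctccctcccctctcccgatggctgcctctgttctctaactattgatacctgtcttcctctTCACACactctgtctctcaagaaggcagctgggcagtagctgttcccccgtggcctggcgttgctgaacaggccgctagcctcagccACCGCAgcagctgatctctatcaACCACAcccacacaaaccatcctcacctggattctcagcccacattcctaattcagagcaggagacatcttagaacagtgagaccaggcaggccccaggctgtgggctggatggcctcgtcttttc
Of 14 genes of the CD8 lineage and effector lists at least 2-fold higher, 10 had a window, of which 6 held a RUNX match (Cst7, Gzma, Gzmb, Nkg7, Runx3 and Xcl1) and 3 a T-box match (Gzmb, Nkg7 and Xcl1). The same letters were found in 22.5% and 14.4% of 27025 genes with a window. A match is a string of letters and no evidence of binding, and the 4 printed windows were picked for holding one.

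**Figure D2:**
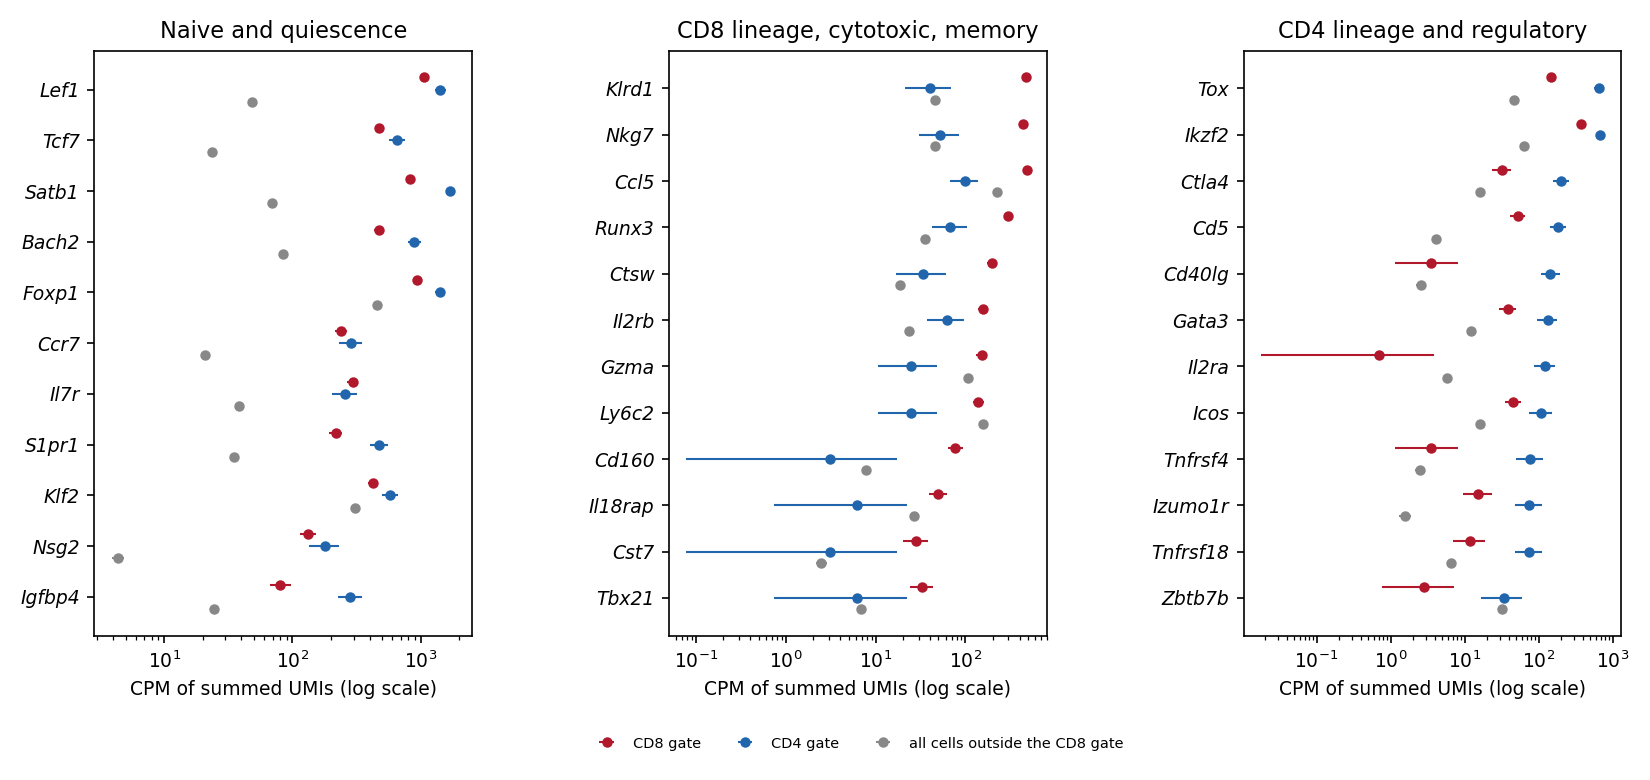
CPM of summed UMIs on a log axis in CD8 cells, CD4 cells and all cells outside the CD8 group, for genes of 3 groups, with exact Poisson 95% intervals for counting error. Most naive genes lie within 2-fold of each other in CD8 and CD4 cells, mostly lower in CD8 cells, and above all other cells. Klrd1 and Nkg7 lie higher in CD8 than in CD4 cells. Cd40lg and Il2ra lie lower.

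Transcripts of killing molecules proper were seen in fewer CD8 cells. Ccl5, a chemokine of memory and killer lymphocytes, was at 13.0 CPM in the lowest run, 376 at the median and 1364 in the highest. It came from 63 CD8 cells, 233 of its 686 UMIs from a single cell, and was at 480.3 CPM in CD8 cells, 98.6 CPM in CD4 cells and 2331 CPM in NK cells. Its 4.87-fold difference over CD4 cells (3.42 to 7.18) was 3.10-fold without run 5. Without run 7 it was 87.8-fold on 1 UMI in CD4 cells (15.7 to 3474). The size of the difference thus rests on few cells, and Ccl5 stayed higher in CD8 cells with any run left out. Gzma, which codes for granzyme A, gave 217 UMIs in 33 CD8 cells, at 152 CPM, against 24.7 CPM in CD4 cells and 2055 CPM in NK cells. The 6.16-fold difference over CD4 cells (3.07 to 14.5) was at least 10.4-fold without run 7. Gzmb, for granzyme B, gave 41 UMIs in 12 CD8 cells and 0 UMIs in CD4 cells. It was at least 3.10-fold higher against a floor of 3 UMIs over the CD4 group. This bound was 1.41-fold without run 3, 1.64-fold without run 7 and 1.74-fold without the CD8 cell richest in Gzmb. Prf1, for the pore protein perforin, gave 4 UMIs in CD8 cells and 1 in CD4 cells, at 2.80 CPM in CD8 cells, against 48.3 CPM in NK cells. In CD8 cells the perforin transcript was thus near the limit of detection, where Gzma was not. The interferon gamma gene Ifng gave 59 UMIs in 17 CD8 cells and 3 in CD4 cells, a ratio of 4.47 (1.46 to 22.3) that was 1.76 without run 3 and at least 2.91 without run 7. With thinned cells the Ifng bound was 1.61-fold.

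Transcription factors and surface proteins of memory cells followed. Tbx21 was at 32.9 CPM in CD8 cells and 6.16 CPM in CD4 cells, a ratio of 5.34 (1.40 to 45.4), and Eomes gave 32 UMIs in 25 CD8 cells and 0 in CD4 cells, at least 2.42-fold higher. Without run 7 CD4 cells had 0 UMIs of either gene, and the bounds were 1.64-fold for Tbx21 and 1.16-fold for Eomes; with at least 2 coreceptor UMIs they were 1.69-fold and 1.20-fold. Of 15 memory genes 12 could be compared, with 5 at least 2-fold higher, 1 lower and a median log2 fold of 0.82. Il2rb, the chain through which interleukins 2 and 15 signal, was at 157 CPM in CD8 cells and 61.6 CPM in CD4 cells, 2.54-fold higher (1.61 to 4.25). Without run 7 it was 8.84-fold higher on 3 UMIs in CD4 cells (2.97 to 43.3). Ly6c2, a surface protein of memory CD8 cells, was 5.65-fold higher (2.81 to 13.3), at 139 CPM in CD8 cells and 24.7 CPM in CD4 cells, but all other cells were at 155 CPM. Plac8 was at 259.7 CPM in CD8 cells and 86.3 CPM in CD4 cells, 3.01-fold higher (2.05 to 4.59) and 6.96-fold without run 4. Il18rap, a chain of the interleukin 18 receptor, was at 49.7 CPM in CD8 cells and 6.16 CPM in CD4 cells, a ratio of 8.06 (2.15 to 67.9) on 2 UMIs in CD4 cells. It was 16.0 without run 4, and with 0 UMIs left in CD4 cells it was at least 2.29 with at least 2 coreceptor UMIs, at least 3.80 without cells holding other lineages' transcripts and at least 1.42 with thinned cells. The other chain, Il18r1, was 0.333 times the CD4 level, 0.651 times without run 7 and 0.620 times with at least 2 coreceptor UMIs. Cd44, the usual surface marker of memory, was at 105 CPM in CD8 cells and 74.0 CPM in CD4 cells with an interval of the ratio that held 1 (0.919 to 2.29). With all cells the partners of 1 receptor thus stood on opposite sides, and the memory list did not move as a block.

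Among genes of tissue residency 5 of 10 could be compared, with Itgae and Xcl1 higher and Rgs1 lower, at 0.369 times the CD4 level and 0.794 times without run 7. With at least 2 coreceptor UMIs Rgs1 turned direction, at 1.20 times on 3 UMIs in CD4 cells (0.376 to 6.14), and the bounds of Itgae and Xcl1 were 1.39 and 1.01 with 0 UMIs in CD4 cells. The chemokine gene Xcl1 gave 32 UMIs in 5 CD8 cells, 20 of them in 1 cell, and 2 in CD4 cells, a ratio of 3.63 with an interval that held 1 (0.927 to 31.3), and it was 0.683 without run 1 and 1.13 with thinned cells. Itgae, the CD103 integrin that holds T cells to epithelium, gave 38 UMIs in 25 CD8 cells and 1 UMI in CD4 cells, a ratio of 8.63 (1.46 to 350.4) that was at least 1.48 without run 7 and at least 1.42 with thinned cells. Cd69 was at 153 CPM in CD8 cells and 160.3 CPM in CD4 cells. Zfp683 gave 0 UMIs in CD8 cells, and Itga1 gave 6 in 2 cells, against 61.1 CPM in NK cells. Of the 11 genes of the inhibitory receptor list, which also holds Tox, not itself a receptor, 5 could be compared. Cd160 was higher and Tox, Ctla4 and Btla were lower. Cd160, a receptor of killer lymphocytes, gave 110 UMIs in 52 CD8 cells and 1 UMI in CD4 cells, a ratio of 25.0 (4.39 to 996), at least 6.22 without run 1, 14.9 without run 7 and at least 1.80 with thinned cells. Pdcd1, Havcr2 and Lag3, genes raised in exhausted T cells, gave 7, 6 and 0 UMIs in CD8 cells.

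**Figure D3:**
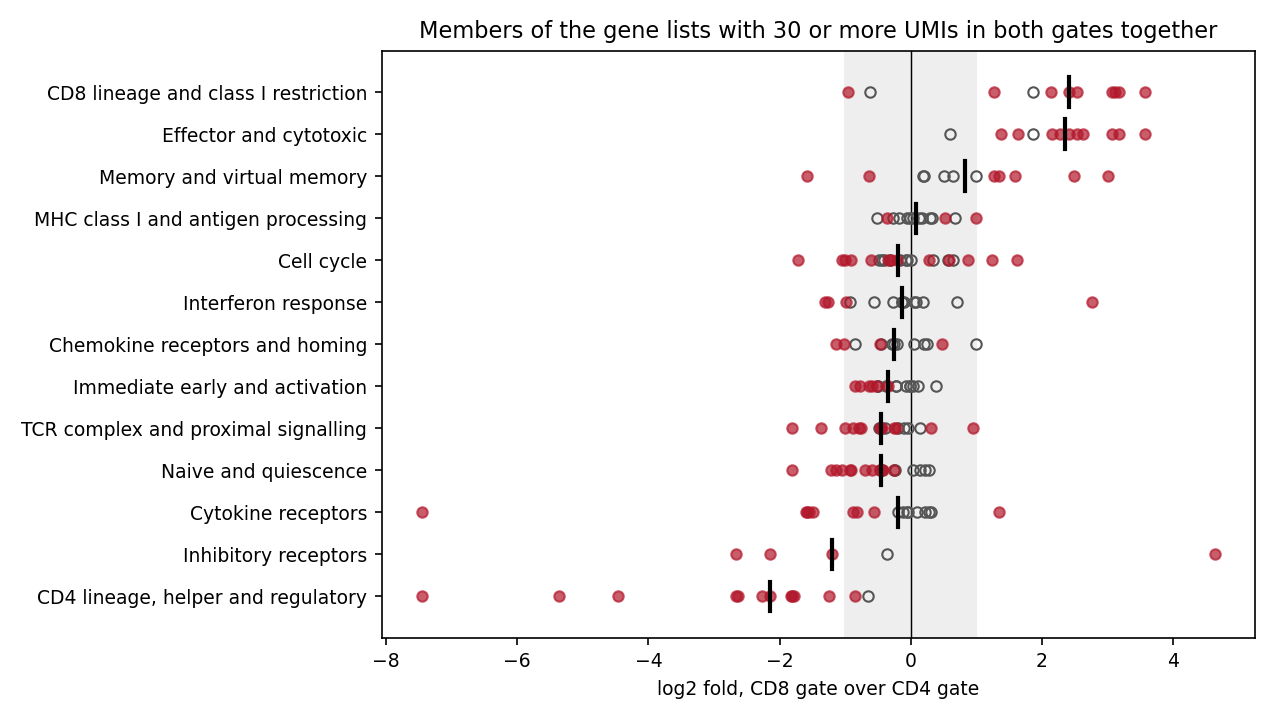
Log2 fold of CD8 over CD4 cells for each list member with at least 30 UMIs in both together; filled points have an exact interval of the ratio that excludes 1, black bars are list medians, and grey spans less than 2-fold. Where a gene had 0 UMIs on a side the point is its bound against 3 UMIs. The medians of the CD8 lineage and effector lists are 2.42 and 2.35, and that of the CD4 list is -2.14.

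CD4 cells were higher for helper and regulatory genes. Of 18 such genes 13 could be compared, and 11 of these were at least 2-fold lower in CD8 cells, 0 higher, with a median log2 fold of -2.14. Cd40lg, the helper ligand, gave 5 UMIs in CD8 cells and 47 in CD4 cells, 0.0242 times the CD4 level per UMI (0.00750 to 0.0605) and 0.00531 times without run 5. Il2ra, the high-affinity interleukin 2 receptor chain, gave 1 UMI in CD8 cells and 40 in 9 CD4 cells, a ratio of 0.00568 (0.000140 to 0.0335), and 0.0265 without run 7 and at most 0.0195 without run 1. Foxp3, the regulatory T cell factor, gave 0 UMIs in CD8 cells and 18 in 8 CD4 cells. Foxp3 and Il2ra were thus found almost wholly in the CD4 group. Ctla4 was at 32.2 CPM in CD8 cells and 203 CPM in CD4 cells, 0.158 times the CD4 level (0.106 to 0.234) and 0.0751 times without run 2. Gata3, a helper lineage factor, was 0.291 times the CD4 level (0.191 to 0.444). Tox, needed for CD4 lineage development, was at 148 CPM in CD8 cells and 650.4 CPM in CD4 cells, 0.227 times (0.187 to 0.276). The costimulatory receptor Icos was 0.422 times, which became 0.529 without run 3 and 0.506 without run 7. Ikzf2, the Helios factor, was at 378 CPM in CD8 cells and 678 CPM in CD4 cells, but was seen in 108 of 188 CD8 cells and 17 of 54 CD4 cells.

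Of 20 naive genes, 4 were at least 2-fold lower in CD8 cells, Igfbp4, Treml2, S1pr1 and Satb1, and 0 were higher, with a list median of -0.46; 6 were lower without run 7 and 7 without cells holding 5 or more UMIs of other lineages. Satb1 was at 828 CPM in CD8 cells and 1708 CPM in CD4 cells, 0.485 times (0.438 to 0.537), and 0.606 times without run 1 or 0.502 without run 2. S1pr1, the receptor for leaving lymphoid organs, was at 218 CPM in CD8 cells and 478 CPM in CD4 cells, 0.456 times (0.375 to 0.556). Igfbp4 was at 80.5 CPM in CD8 cells and 284 CPM in CD4 cells, 0.284 times, and 0.161 times without run 7 or 0.463 times without run 8. Cd5 and Cd6, surface proteins that dampen receptor signals, and Fyb, an adaptor, were the 3 of 20 receptor signalling genes at least 2-fold lower, with 0 higher and a list median of -0.45. Cd5 was at 52.5 CPM in CD8 cells and 185 CPM in CD4 cells, 0.284 times (0.200 to 0.406). Cd6 was 0.388 times and 0.506 without run 1, and Fyb was 0.497 times and between 0.500 and 0.537 without run 1, 2, 3 or 8. The other 17 lay within 2-fold, with Lck at 172 CPM in CD8 cells and 197 CPM in CD4 cells and Trbc2 at 1394 CPM in CD8 cells and 1439 CPM in CD4 cells.

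The shares past 2-fold in the groups that follow are to be read against 6.24% higher and 6.87% lower over all genes compared. Of 14 class I presentation genes, 14 could be compared and 0 passed 2-fold in either direction, with a median log2 fold of 0.08, and of 17 immediate early genes compared, of 18, 0 passed. Without cells holding 5 or more UMIs of other lineages 2 of these class I genes were higher and 4 of the immediate early genes, Jun, Fosb, Egr1 and Nr4a3, were lower. Of 17 cytokine receptor genes compared, of 21, 1 was higher (Il2rb) and 5 were lower, Il2ra, Il18r1, Il6ra, Il6st and Ifngr2. Of 14 interferon response genes compared, of 21, Gbp2 was higher, at a ratio of 6.81 on 1 UMI in CD4 cells (1.13 to 278) that was at least 1.16 without run 7, and Stat2 and Ifi27l2a were lower at 0.416 and 0.404 times, with Stat2 at 0.600 without run 4 and 0.850 with thinned cells. The 1 higher of 14 is near the share over all genes. Of 13 chemokine receptor and homing genes compared, of 19, 0 were higher and 2 lower, S1pr1 and the integrin chain Itgb7, which was 0.494 times and between 0.521 and 0.526 without run 1, 2 or 3. The gut homing receptor Ccr9, also a marker of thymic emigrants, was at 32.9 CPM in CD8 cells and 27.7 CPM in CD4 cells. Of 15 thymocyte genes 6 could be compared, with Cd24a higher and Tox and Satb1 lower, and of 12 fetal genes 4, with Cd24a alone past 2-fold. Cd24a, a surface protein of immature T cells, gave 30 UMIs in 13 CD8 cells and 2 in CD4 cells, a ratio of 3.41 with an interval that held 1 (0.865 to 29.4), which was 2.25 without run 3, at least 1.53 without run 7, at least 1.13 with at least 2 coreceptor UMIs and 1.70 with thinned cells. Recombination genes of thymocytes, Rag1, Rag2 and Dntt, gave 0 UMIs in both, where 0 of 188 and 0 of 54 cells, at 3 cells of the total, allow up to 1.60% and 5.56% of cells with a UMI. Of the fetal genes, Igf2bp3, an RNA-binding protein of the fetal programme, was at 115 CPM in 86 CD8 cells, against 157 CPM in CD4 cells and 91.6 CPM in all other cells. Lin28b gave 10 UMIs in 8 CD8 cells and Hmga2 gave 0. Igf2bp3 in CD8 cells was 1.25-fold the level in all other cells (1.07 to 1.46).

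The share of cells with a UMI follows depth, so cells were also thinned to 2000 UMIs each, which left out 1 of 188 CD8 and 1 of 54 CD4 cells. As background, 3238 cells with at least 2 UMIs of Csf1r and 0 of the Cd3 genes, called macrophages here, had a median of 6020 UMIs and were thinned alike, which left out 193 and kept 3045. After thinning Klrd1 was seen in 48.7% of CD8 cells (62.2% before), 1.89% of CD4 cells (1.85% before) and 0.0985% of macrophages (0.587% before). Nkg7 was seen in 42.2% of CD8 cells (72.3% before), 3.77% of CD4 cells (3.70% before) and 0.0985% of macrophages. Both were thus above the share in macrophages in CD8 cells by a wide margin. Runx3 was seen in 40.6% of CD8 cells (71.8% before), 11.3% of CD4 cells (20.4% before) and 4.83% of macrophages. Ccl5 was seen in 22.99% of CD8 cells (33.5% before), 1.89% of CD4 cells (5.56% before) and 1.44% of macrophages. Ikzf2 was seen in 38.5% of CD8 cells (57.4% before), 24.5% of CD4 cells (31.5% before) and 0.985% of macrophages. Lef1 was seen in 77.0% of CD8 cells (93.6% before), 75.5% of CD4 cells (92.6% before) and 0.230% of macrophages. The Lef1 shares in CD8 and CD4 cells differed by less than their intervals (70.3 to 82.8 and 61.7 to 86.2), and the CD4 share of Ccl5 was close to that in macrophages. Ly6c2, at 18.7% of CD8 cells and 18.6% of macrophages, is expressed by monocytic cells too, so macrophages give no background for it.

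Killer-type and naive transcripts were found in the same cells. Of the 117 cells with Klrd1, 107 had Lef1 and 64 had Ccr7. Of the 136 cells with Nkg7, 129 had Lef1. Of 164 cells with at least 1 UMI of Klrd1, Nkg7 or Ccl5, 159 also had Lef1, Tcf7 or Ccr7. The other 24 cells had none of those 3 genes, and all 24 had Lef1, Tcf7 or Ccr7. Of the 71 cells without Klrd1, 69 had Lef1 and 47 had Ccr7. As Lef1 was seen in 176 of the 188 CD8 cells, nearly any group of them would overlap with it. Median depths were 5946 UMIs with Klrd1 and 5111 without, so these counts are given without a comparison.

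**Figure D4:**
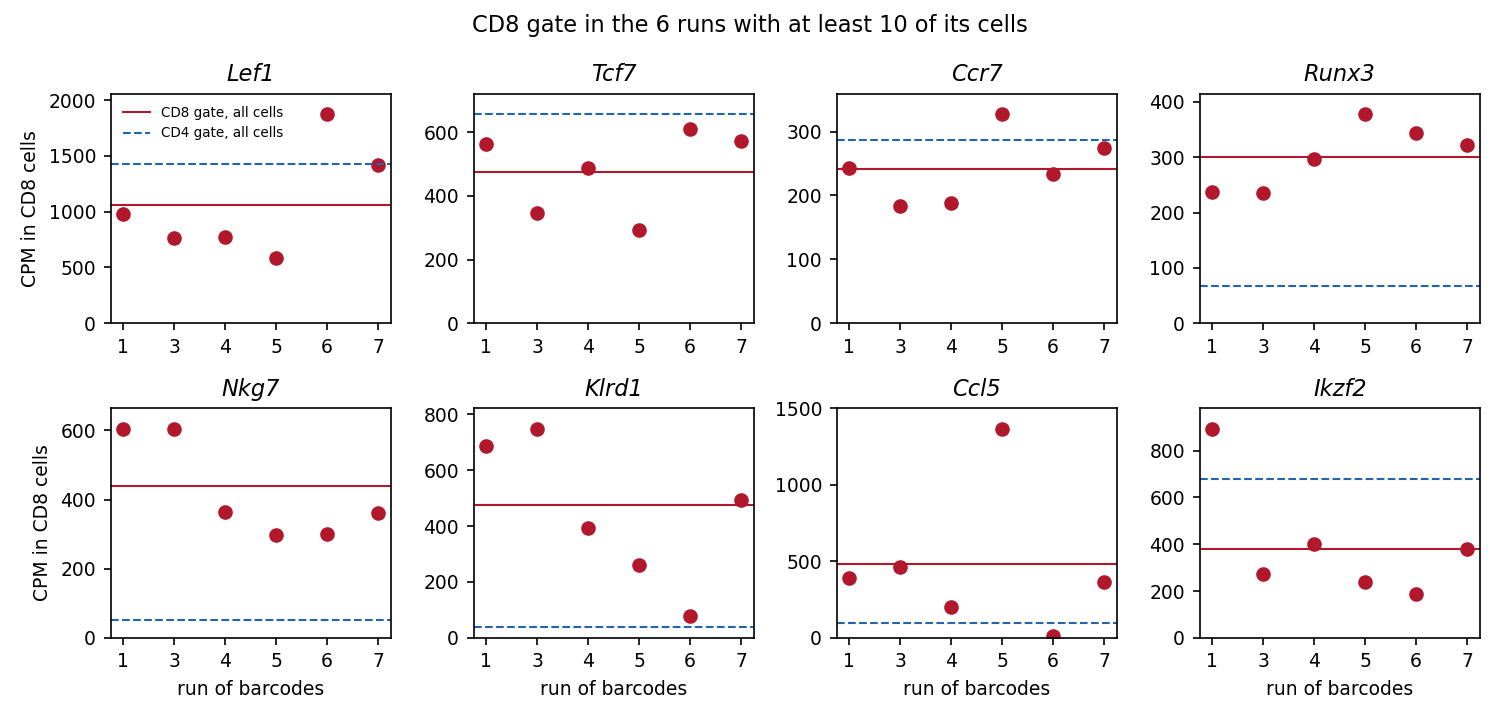
CPM of 8 genes in CD8 cells in each of the 6 runs with at least 10 of them; the solid line is the level over all CD8 cells and the dashed line that over all CD4 cells. Runx3, Nkg7 and Klrd1 lie above the CD4 level in all 6 runs, while Ccl5 ranges between 13.0 and 1364 CPM.

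CD8 cells with a UMI of Ccl5 made up 63 of 188, or 33.5% (26.8 to 40.7), and between 19.4% and 53.8% of the CD8 cells of the 6 runs. They had a median of 6572 UMIs, against 5152 in the 125 cells without it. Of the 23 CD8 cells with at least 5 UMIs of macrophage, neutrophil, dendritic or epithelial markers, 14 were among the cells with Ccl5 (22.2% of them) and 9 among those without (7.20%). Of 5637 genes compared, 117 were at least 2-fold higher in cells with Ccl5 (2.08%) and 196 lower (3.48%). The calcium-binding proteins S100a6 and S100a4, which rise in memory T cells, were 4.56-fold higher (3.84 to 5.45) and 4.39-fold higher (3.34 to 5.84), with S100a6 at 927 CPM in cells with Ccl5 and 203 CPM in cells without. Leaving out the cells with other lineages' markers, an alternative added after seeing the data, S100a6 was 6.02-fold and S100a4 5.78-fold higher. Klrd1 was at 807 CPM in cells with Ccl5 and 260.0 CPM in cells without, 3.10-fold higher (2.64 to 3.66). Cd160 was 3.26-fold, Gzma 3.56-fold, Ifng 4.09-fold and Il18rap 4.16-fold higher, and their intervals excluded 1. Without the cells with other lineages' markers Klrd1 was 2.97-fold, Cd160 2.22-fold, Gzma 4.36-fold, Ifng 5.08-fold and Il18rap 4.08-fold higher. Single cells carried part of the difference of Gzma, 2.17-fold without the cell richest in it, and of Ifng, 2.18-fold without its richest cell. Runx3 was at 284 CPM in cells with Ccl5 and 310 CPM in cells without, and its ratio's interval held 1 (0.749 to 1.12). The naive genes summed to 6973 CPM in cells with Ccl5 and 9056 CPM in cells without, with Lef1 0.643 times and Satb1 0.637 times the level without. Igfbp4 and Ccr9 were both at 0.360 times and Itgae at 0.343 times (0.128 to 0.795). Without the cells with other lineages' markers Ccr9 was 0.525 times with an interval that held 1 (0.221 to 1.12), and Itgae gave 0 UMIs in cells with Ccl5 and 26 in cells without, as its 7 UMIs in cells with Ccl5 came from 1 cell. Cell cycle genes summed to 6635 CPM in cells with Ccl5 and 6548 CPM in cells without.

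**Figure D5:**
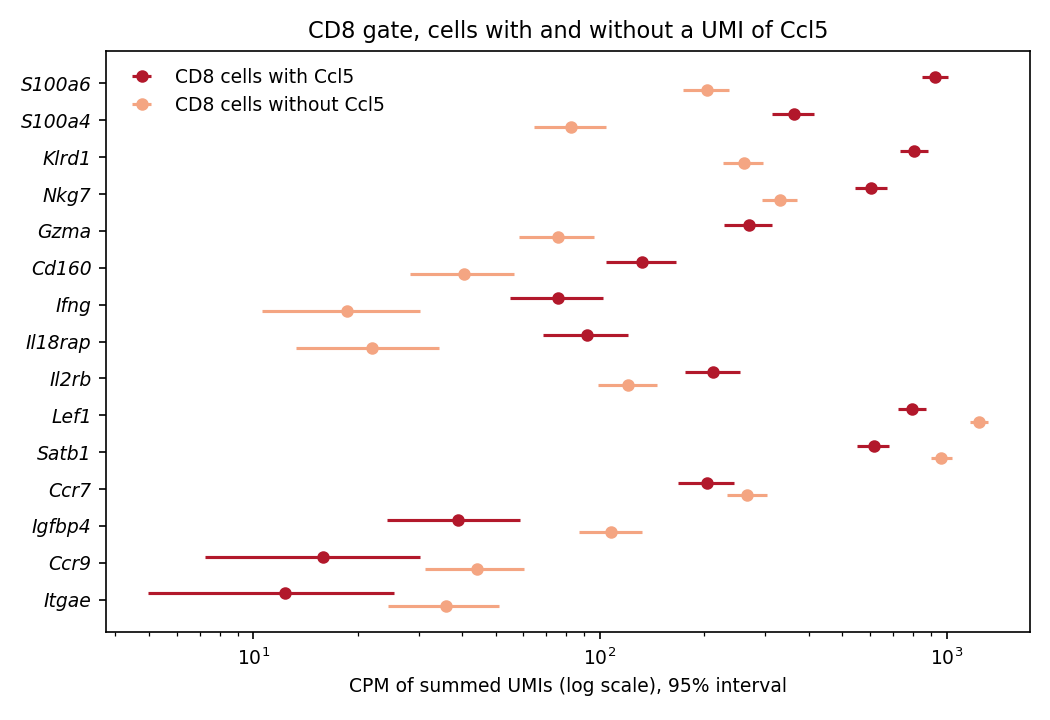
CPM with exact Poisson 95% intervals, on a log axis, in the 63 CD8 cells with and the 125 CD8 cells without a UMI of Ccl5. S100a6, S100a4, Klrd1 and Gzma lie higher in cells with Ccl5, and Lef1, Satb1, Igfbp4, Ccr9 and Itgae lie lower.

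Transcripts of dividing cells were common. Mki67 or Top2a was seen in 63 of 188 CD8 cells, 33.5% (26.8 to 40.7), and in 18.5% to 61.5% of the CD8 cells of the 6 runs, with 20 cells that also had Ccl5. After thinning Top2a was seen in 18.7% of CD8 cells (26.6% before), 24.5% of CD4 cells (29.6% before) and 1.71% of macrophages. Mki67 was seen in 10.2% of CD8 cells (24.5% before), 13.2% of CD4 cells (24.1% before) and 3.15% of macrophages. The 140 NK cells kept after thinning had Top2a in 17.1% and Mki67 in 10.7%, close to the shares in CD8 cells. The 24 cell cycle genes summed to 6582 CPM in CD8 cells, 7376 CPM in CD4 cells and 6775 CPM in gamma-delta T cells. Their sum was 3900.0 CPM in NK cells and 2162 CPM in all other cells. Between CD8 and CD4 cells 2 of the 24 were at least 2-fold higher, Mcm2 and Tyms, and 3 lower, against 6.24% and 6.87% of all genes compared. Without run 7 these counts were 5 and 2, and the list median was 0.21 on the log2 scale, against -0.19 with all runs; with thinned cells the counts were 2 and 7. The lower genes were Birc5 at 0.499 times (0.606 without run 7, 0.538 without run 4 and 0.503 without run 8), Ccnb1 at 0.303 times and Ube2c at 0.486 times (0.597 without run 1 and 0.505 without run 4). Mcm2 was 3.07-fold and Tyms 2.37-fold higher with all runs, and Tyms was 1.49-fold with thinned cells. Without run 7 they were 9.05-fold (1.56 to 364) and 3.81-fold (1.44 to 14.3) higher, on 1 and 4 UMIs in CD4 cells. CD8 cells with Mki67 or Top2a were deeper, with a median of 9045 UMIs, against 4463 in cells without. All 22 other cell cycle genes were higher in them, summing to 9896 CPM, against 1997 CPM in cells without. Of 5636 genes 495 were at least 2-fold higher (8.78%) and 178 lower (3.16%). Gzmb gave 40 of its 41 UMIs in these cells, and 1 cell held a large part of them. Without that cell the bound of Gzmb over CD4 cells fell from 3.10-fold to 1.74-fold. Gzma was 2.47-fold higher (1.82 to 3.39), or 1.52-fold (1.09 to 2.14) without the cell richest in Gzma. Ccl5 was 0.378 times the level in cells without Mki67 or Top2a (0.318 to 0.447), where the cell with 233 of its UMIs lay; leaving that cell out gave 0.708 times (0.585 to 0.856). Naive genes summed to 7262 CPM in cells with Mki67 or Top2a and 9255 CPM in cells without.

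The 20 cells with Cd8a and no Cd8b1, 10.6% of the CD8 cells (6.62 to 16.0), had a median of 5227.5 UMIs, against 5682.5 in the 168 cells with Cd8b1. This difference in coreceptor transcripts chose them, and in cells of this depth a missed Cd8b1 transcript and a true Cd8a-Cd8a cell cannot be told apart. Of 5637 genes 275 were at least 2-fold higher (4.88%) and 575 lower (10.2%), with an interval that excluded 1 for 161 and 128 of them. Klrd1 was at 1199 CPM in cells without Cd8b1 and 398 CPM in cells with it, 3.01-fold higher (2.52 to 3.59). Ikzf2, which is known from unconventional and agonist-selected T cells, was at 950.4 CPM in cells without Cd8b1 and 315 CPM in cells with it, 3.01-fold higher (2.46 to 3.67). Tox was 2.62-fold, Fcer1g 2.47-fold and the receptor-induced factor Nr4a1 3.67-fold higher. Without the cells with other lineages' markers, 4 of these 20 and 19 of the 168, Fcer1g was 7.75-fold higher and Nr4a1 1.96-fold with an interval that held 1 (0.970 to 3.65). Ccr7 was at 70.9 CPM in cells without Cd8b1 and 259 CPM in cells with it, 0.273 times (0.130 to 0.509), while Lef1 was at 1114 CPM in cells without Cd8b1 and 1057 CPM in cells with it. Macrophage markers summed to 837 CPM in cells without Cd8b1 and 433 CPM in cells with it, and their part in the other values was not tested.

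Some of the CD8 cells also held transcripts of other lineages. The 10 macrophage genes summed to 473 CPM in CD8 cells, 490.1 CPM in CD4 cells and 7048 CPM in all other cells, and ranged between 41.2 and 1191 CPM over the 6 runs, with Lyz2 giving 587 of the 676 UMIs. The 8 dendritic genes summed to 151 CPM in CD8 cells and 92.5 CPM in CD4 cells, with 105 of 216 UMIs in 1 cell, and ranged between 0 and 885 CPM. Epithelial genes summed to 125 CPM in CD8 cells and 160.3 CPM in CD4 cells. The 7 B cell genes summed to 334 CPM in CD8 cells, 271 CPM in CD4 cells and 1023 CPM in all other cells. Of their 477 UMIs in CD8 cells 272 were of Ighm, the heavy chain gene, found in 111 cells and 4.49-fold higher than in all other cells, and 194 were of Cd74, 92 of these in 1 cell. Igkc and Ebf1 were at 0 in CD8 cells, so Ighm counts alone do not mark B cell content here, and their source was not tested. The 8 endothelial genes summed to 169 CPM in CD8 cells, 400.7 CPM in CD4 cells and 312 CPM in all other cells, with 223 of 241 UMIs from Pecam1, an adhesion protein that leukocytes also carry. At least 5 UMIs were held by 15 CD8 cells for the B cell and 14 for the endothelial genes. In all, 23 CD8 cells held at least 5 UMIs of macrophage, neutrophil, dendritic or epithelial markers and 77 held 0. Of the 15 genes ranked highest in CD8 over CD4 cells, Ear2 had all of its 49 UMIs in these 23 cells, Lpl 98.0%, Slc8a1 97.4% and Tcf7l2 90.5%. Zeb2 of the effector list, 2.60-fold higher than in CD4 cells with all cells and 1.40-fold without run 3 or 1.64-fold without run 7, had 93.8% of its UMIs there, Xcl1 81.2%, Tspan3 63.0% and Ccl5 57.7%, the cell with 233 Ccl5 UMIs included. Cd160 had 36.4%, Itgae 31.6%, Eomes 31.2% and Il18rap 26.8%, while Klrd1 had 20.9%, Nkg7 17.6%, Runx3 13.8% and Gzma 4.15%. Without such cells 7 of 11 CD8 lineage and 9 of 12 effector genes were at least 2-fold higher, and 1 lineage gene, Bcl11b, was lower at 0.499 times. Klrd1 was then at least 39.4-fold higher than in CD4 cells, on 0 UMIs there. Ccl5 was 21.2-fold (7.19 to 103), Gzma 22.8-fold (6.24 to 190) and Ctsw 10.4-fold (4.38 to 32.2) higher. These ratios rest on 3, 2 and 5 UMIs in CD4 cells, so their sizes are uncertain. Zeb2 turned to 0.549 times on 5 and 2 UMIs (0.0898 to 5.76), Itgae was at a ratio of 5.71 with an interval that held 1 (0.937 to 234), and against 0 UMIs in CD4 cells the bounds were 5.12-fold for Cd160, 1.61-fold for Eomes and 1.24-fold for Tspan3. The other genes of that highest group were Cd160, Chsy1, Klrd1, Tspan3, Plxdc2, Ube2g2, Cst7, Itgae, Jade3, Nkg7 and Il18rap. The 15 ranked lowest included St8sia6, Cd40lg, Myo6, Tgfbr3, Trib2, Ctla4, Tnfrsf18 and Slamf1. Genes were ranked only with the same direction in the 2 runs with at least 10 cells of each kind, and clone names were left out. Il2ra (0.00568 times), Tnfrsf4 (0.0454 times) and 5830411N06Rik (17.7-fold) were thus not ranked. Of 14 gamma-delta T cell genes 2 could be compared and both were higher in CD8 cells. Cd163l1 was 4.77-fold higher (1.80 to 17.9), and 11.1-fold without run 7 on 1 UMI in CD4 cells (1.93 to 445). 5830411N06Rik was at a ratio of 17.7 on 1 UMI in CD4 cells (3.09 to 709), at least 5.86 without run 2 and 8.73 without run 7. All 14 summed to 177 CPM in CD8 cells, 120.2 CPM in CD4 cells and 3154 CPM in gamma-delta T cells. Of 16 genes of NK and innate-like T cells 3 could be compared, and with all cells Il2rb passed 2-fold while Tyrobp and Fcer1g did not. Without cells holding 5 or more UMIs of other lineages all 3 did, Fcer1g at a ratio of 12.7 (2.20 to 511) and Tyrobp at 4.83 with an interval that held 1 (0.780 to 199), each on 1 UMI in CD4 cells. Tyrobp, an adaptor of NK receptors, was at 131 CPM in CD8 cells, 123 CPM in CD4 cells and 1578 CPM in NK cells.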

How the data were processed

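Per the labels' protocols, 8 droplet libraries (3′ chemistry with molecular identifiers) were made from sorted cells of frozen and thawed lungs, 4 per oxygen group. The authors deposited a single table of raw UMI counts for 32285 genes and 11806 cells, not normalized. Per the submitters' processing notes, Cell Ranger 1.3.1 and build mm10 were used, and how strand and introns were handled is not stated there. The column names give barcodes with 7 merge suffixes that match no label, so cells were mapped to no library, and the edgeR comparison of hyperoxia with air was not run. Whether libraries are separate litters is not stated.

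Counts were summed over cells and expressed as CPM with exact Poisson intervals, and ratios got exact conditional binomial intervals at 95%, with Python 3.11.15, numpy 2.4.6 and scipy 1.17.1. Intervals and floors cover counting error only. A ratio with a count of 0 on a side is a bound against 3 UMIs over the group. Genes of the cell choice were left out of counts. Against CD4 cells a gene needed 30 UMIs in both together, and 2-fold was used. Against all other cells it needed 30 UMIs seen or expected in CD8 cells, and 4-fold was used. Doublets were scored with Scrublet in scanpy 1.11.5 and marked at 0.8% per 1000 cells of a run, which marked 6 CD8 cells; they were kept and left out as an alternative. Free RNA was not subtracted. The calculation was tested on simulated data that held independent counting error only. UMIs gathered in single cells were not simulated, so that test does not check the folds of these data.

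The cell choice, the gene lists and the comparisons were chosen with earlier results of these data known. Named genes are those of the choice and the lists, the 15 highest and lowest folds against CD4 cells with an interval that excludes 1, the 20 highest against all other cells at 100 CPM or more, and members of the lists in the splits by Ccl5, by Mki67 or Top2a, and by Cd8b1. Both rankings left out genes with only a clone name and T cell receptor segments. The ranking against CD4 cells also required the same direction in the 2 runs with at least 10 CD8 and 10 CD4 cells. S100a6, S100a4 and Klra5 were named after their values were seen. Gene positions are from GENCODE M21, which matched 420 of 421 genes.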

Additional observations from a re-analysis of the deposited data

How the results depend on the processing

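No paired analysis was possible because the columns carry no replicate numbers and cells map to no library. With at least 2 UMIs of a coreceptor, 162 CD8 cells were left and most of the 54 CD4 cells fell out. Of cells with 1 coreceptor type 89.5% were then CD8 cells, and 763 genes were at least 2-fold lower. With at least 2 UMIs of Trac, 128 CD8 cells were left. With cells thinned to 2000 UMIs, 123 genes were at least 2-fold higher and 137 lower. A minimum of 10 UMIs gave 879 higher and 934 lower of 9197 genes, and 1908 genes at least 4-fold lower than in all other cells. A minimum of 100 UMIs gave 72 higher and 109 lower of 2692 genes, and 119 higher and 511 lower at 4-fold. Without the cell holding most UMIs of each gene, an alternative added after seeing the data, 702 were higher and 266 lower. All of these settings change the number of cells, genes or UMIs compared by construction, and beyond that the cause was not tested. The number of genes compared is given only for the minimums of 10 and 100 UMIs against CD4 cells. Leaving out each run in turn gave 118 to 185 CD8 cells, a share of 75.2% to 80.8%, 322 to 518 higher and 368 to 455 lower genes at 2-fold, and 212 to 271 higher and 993 to 1158 lower at 4-fold. Over these, 4 to 9 of 11 CD8 lineage genes and 7 to 11 of 12 effector genes were at least 2-fold higher, and 10 to 12 of 13 CD4 genes lower; the lowest counts include bounds that fall under 2-fold when CD4 cells are left with 0 UMIs. Removing marked doublets left 182 cells, a share of 77.4%, and 369 higher and 437 lower genes. Of 223 named genes 81 were past 2-fold, and a change of sign was looked for only in these 81. On the log2 scale 3 of them changed sign. Rgs1 went to 0.27 with at least 2 coreceptor UMIs, and Xcl1 to -0.55 without run 1 (up to 2.04 over all runs left out). Zeb2 went to -0.87 without cells holding 5 or more UMIs of other lineages (added after seeing the data). A fold with at most 3 UMIs on each side was not counted: without those cells Ear2 kept 0 and 1 UMIs and Fscn1 2 and 1 in CD8 and CD4 cells. The 223 genes had 3540 values under those of the 20 alternatives that gave folds of single genes. Of these values 285 moved past their interval and were not among the 3 changes of sign. Depth limits low genes most: a single UMI in CD4 cells set the ratios of Cd160, Cst7 and Itgae.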

Other observations

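Receptor variable segments were captured in a minority of CD8 cells. The table lists 35 Trbv segments, of which 17 were seen, with 82 UMIs in 56 CD8 cells, 4 of which held more than 1 segment. Trbv12-2 was found in 13 CD8 cells, Trbv19 in 7, Trbv15 in 5, and Trbv26 and Trbv20 in 4 each. In CD4 cells Trbv12-2 was found in 5 cells and Trbv19 in 3. Of 128 Trav segments 20 were seen, with 55 UMIs in 36 CD8 cells, and Trav16 was found in 7 CD8 cells and 0 CD4 cells. Near-identical segments can share reads, and the table does not say how such reads were assigned.

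The 121 T cells with neither coreceptor transcript carried naive and innate genes at their own levels. Lef1 was at 780.2 CPM in them and Il7r at 261 CPM. Ikzf2 was at 952 CPM in them, against 378 CPM in CD8 cells and 678 CPM in CD4 cells. Zbtb16, the factor of innate-like T cells, was at 33.7 CPM in them, against 2.10 CPM in CD8 cells and 30.8 CPM in CD4 cells. Cd40lg was at 67.4 CPM in them, against 3.50 CPM in CD8 cells and 145 CPM in CD4 cells. Klra5, an NK receptor gene named after its values were seen, gave 97 UMIs in CD8 cells with Ccl5 and 0 in those without. Of these UMIs 31 (32.0%) lay in 3 cells with at least 5 UMIs of other lineages' markers.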
